A study of Mus musculus with 16 samples.

Results

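Active stress-coping (AS) mice and unstressed control mice were compared under dexamethasone (DEX), a synthetic glucocorticoid, by RNA sequencing of the dorsal raphe nucleus (DRN). The comparison held every library that the labels place in these groups, which were 2 AS DEX libraries (dep2_dex_38 and dep2_dex_42, called AS DEX 38 and 42 here) and 3 control DEX libraries (con_dex_101, con_dex_116 and con_dex_122) of 16 in the series. All animals were male C57BL/6 mice, 10 to 12 weeks old by the study's methods, and no transgene or deletion was named. AS mice (labelled dep2) had been defeated by CD1 aggressors over 30 days and were placed in the AS group by clustering of their behaviour, and control mice met no aggressor and were housed singly for some days. Both groups received 2 mg/kg DEX and were sampled 6 h later, so the comparison holds the stress history and the behavioural phenotype together, with the hormone the same on both sides. The matching saline groups, 3 AS and 3 control libraries, received saline in place of DEX. Passive stress-coping (PS) mice, with 3 DEX and 2 saline libraries, were the second defeated group. They entered the shared estimate of spread, scores taken relative to all 16 libraries, 1 gene list and a few values given for comparison. The labels do not say which mice shared a litter or a day, and p-values measure the spread between these libraries, which may be technical in part.

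The DRN is the main group of serotonin neurons that projects to the forebrain, and it also holds GABA, glutamate and peptide neurons, glia and vessels. DEX binds the glucocorticoid receptor, a ligand-activated transcription factor that resides in the cytoplasm with heat shock proteins and co-chaperones until it is bound. The receptor then enters the nucleus and raises genes such as Fkbp5, whose product is a co-chaperone that lowers the receptor's affinity for hormone. Stress is known to alter how strongly brain tissue answers to glucocorticoids, and the question of this comparison was whether DRN transcript levels differed between AS and control mice once the receptor had been stimulated.

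The 5 libraries held 39733580 to 54638098 reads assigned to genes. Pearson correlations of log2 values between pairs of them ran from 0.97 to 0.99, and no pair agreed within sampling noise. Serotonin neuron markers were among the most abundant transcripts in all 5, with Tph2 at 108805, 161346 and 128674 normalized counts in the control DEX libraries and 100562 and 91764 in the AS DEX libraries. Glucocorticoid targets had a score (the mean log2 level of the listed genes relative to all 16 libraries) of 0.38 to 0.59 in these 5 libraries and of -0.66 to -0.45 in the 6 saline libraries, so each library carried the level that its treatment label gives. The control DEX library con_dex_116 stood apart from its group, with a cytosolic ribosome score of 0.24 against -0.17 and -0.21 in con_dex_101 and con_dex_122, and a glutamatergic synapse score of -0.21 against 0.11 and 0.15. Ependymal cilia scores, from cells that line the ventricle beside the punched tissue, ranged from -1.31 to 0.84 in control DEX and were 1.01 and -0.79 in AS DEX.

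Few gene differences between AS DEX and control DEX passed the test. With limma on log2(normalized count + 1), 1 of 14504 genes passed an adjusted p of 0.1 (0.00689%). This was Gm11583, a noncoding gene that fell. At an unadjusted p under 0.05 there were 508 genes (3.5%), of which 219 were higher in AS DEX (1.51%) and 289 lower (1.99%). Both AS DEX libraries lay above or below all 3 control DEX libraries for 4400 genes (30.3%). DESeq2 on the recovered read counts passed 12 genes (0.0827%, with 578 or 3.99% at an unadjusted p under 0.05), and edgeR passed 0 (512 or 3.53%). The DESeq2 genes were C1ql1, which rose, and 11 noncoding genes, which fell.

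The differences that were seen were small. Among 12863 genes with a mean of at least 100 normalized counts, the median absolute difference was 0.13 on the log2 scale with a median SE of 0.17. The median 95% interval reached 0.37 to either side of its estimate. Only 36 of these genes differed by over 1 on the log2 scale, 14 higher and 22 lower in AS DEX.

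The 24 protein-coding genes that led the comparison, 12 in each direction, were taken by the smallest p among genes whose groups did not overlap, and their differences are given as a description. C1ql1 (chr11:102939264-102946688, GRCm38) encodes a secreted protein of the complement C1q family that organizes synapses and is also a marker of oligodendrocyte precursors. It had 415, 390.3 and 394 normalized counts in control DEX and 657 and 725 in AS DEX, a log2 difference of 0.79 ± 0.18 (SE). The adjusted p was 0.93 in limma and 0.051 in DESeq2. In saline C1ql1 had 699, 781 and 699 normalized counts in control and 701, 717 and 569.6 in AS mice, a log2 difference of -0.14 ± 0.16.

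Several of the other leading genes that lay higher in AS DEX encode channels, signalling proteins and transcription factors. Asic4 (chr1:75450436-75474343), of the acid-sensing ion channel family, had 1358, 1320.3 and 1677 normalized counts in control DEX and 2217 and 2687 in AS DEX, a log2 difference of 0.76 ± 0.18. Nkd2, an inhibitor of Wnt signalling, had 187, 176 and 182 against 281 and 329 normalized counts in the same order, a log2 difference of 0.74 ± 0.19. Rasa4, a GTPase-activating protein for Ras, had 632, 567 and 672 against 994 and 1104, a log2 difference of 0.75 ± 0.20. In each of these the groups were separated by more than the range within either group. Col6a1, a collagen VI chain of the extracellular matrix, stood more than 1 log2 unit apart. Its normalized counts were 230, 226 and 273 in control DEX and 551 and 752 in AS DEX, a log2 difference of 1.41 ± 0.42.

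Pax8, a paired-box transcription factor, had 138, 125 and 196 normalized counts in control DEX and 329 and 521 in AS DEX, a log2 difference of 1.46 ± 0.40 that was the largest of the 24 in size. Sox21, a transcription factor of neural development, had 311, 544 and 547 against 813 and 750.4, a log2 difference of 0.79 ± 0.22, and con_dex_101 was the lowest of the 5. Slc50a1 encodes a sugar transporter and Rce1 the protease that trims prenylated proteins such as Ras. Their log2 differences were 0.45 ± 0.12 and 0.50 ± 0.14. Acrbp, known from the sperm acrosome, Dlk2, a Delta-like protein, and Klc3, a kinesin light chain, differed by 0.73 ± 0.21, 0.69 ± 0.21 and 0.69 ± 0.21 on the log2 scale. Exons of Klc3 share 744 bases with the opposite-strand gene Ercc2 and those of Dlk2 share 51 with Abcc10, so reads of these pairs cannot be told apart if strand was not used in counting.

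Among the leading genes that lay lower in AS DEX, Zfp119b (chr17:55938381-55949500) encodes a zinc finger protein. It had 131, 121.8 and 122.2 normalized counts in control DEX and 71.7 and 56.1 in AS DEX, a log2 difference of -0.97 ± 0.25. Galntl6, of the family that adds the first sugar in mucin-type glycosylation, had 1825, 1885 and 1938 against 1396 and 1532 normalized counts, a log2 difference of -0.36 ± 0.09. It shares 330 exonic bases with BC030500 on the other strand. Dkk3, a secreted protein of the Dickkopf family, had 5012, 5588 and 5010.4 against 4042 and 3983, a log2 difference of -0.37 ± 0.10. The tightly grouped values of Galntl6 and Dkk3 put small differences ahead of larger ones in the ranking.

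Prkaa1, a catalytic subunit of the energy sensor AMPK, had 3268, 3659 and 3296 normalized counts in control DEX and 2638 and 2681 in AS DEX, a log2 difference of -0.36 ± 0.10. Pms2, a DNA mismatch repair protein, had 819, 742 and 795 against 633 and 518, a log2 difference of -0.45 ± 0.12. Armh4, Trim36 (a ubiquitin ligase), Tbc1d8b (a regulator of Rab GTPases), Arhgef6 (a guanine nucleotide exchange factor) and Taf13 (a subunit of the general transcription factor TFIID) differed by -0.45 ± 0.12, -0.56 ± 0.17, -0.62 ± 0.18, -0.36 ± 0.11 and -0.40 ± 0.13 on the log2 scale. The predicted genes Gm3252 and 2210016L21Rik differed by -1.11 ± 0.32 and -0.67 ± 0.21, the first of them uncertain because closely similar copies exist. None of the 24 changed sign under any of 30 alternative settings. The 16 of these that left out a library could not change a sign, because the groups of the 24 do not overlap.

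**Figure D1:**
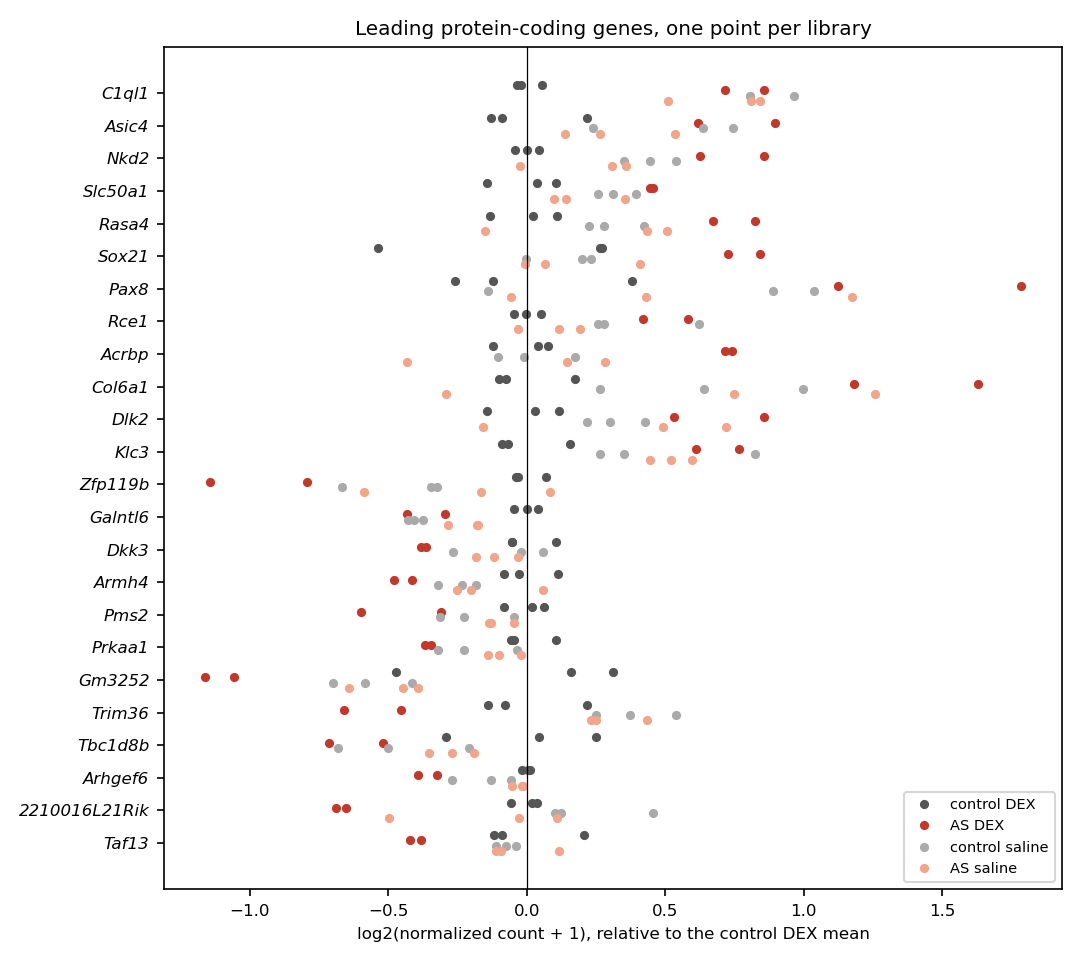
Normalized counts of the 24 leading protein-coding genes, as log2 relative to the control DEX mean (x axis), with 1 point for each library of the control DEX, AS DEX, control saline and AS saline groups. Pax8 and Col6a1 show the widest differences (1.46 and 1.41), and the AS DEX points of each gene lie to 1 side of its control DEX points.

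Only 2 of the 24 leading genes, Rce1 and Galntl6, had an unadjusted p under 0.05 for AS against control in saline, where the background was 2.39%, and both had the sign opposite to that under DEX. The saline groups, with 3 libraries each, did not overlap for 4.49% of all genes. This cannot be set directly against the 30.3% under DEX, because groups of 2 and 3 libraries separate more easily by arrangement alone. In 22 of the 24 the control saline mean lay on the AS DEX side of the control DEX mean. The AS saline mean did so in 23, and the control saline mean passed the AS DEX mean in 2. The 24 were chosen on their control DEX values too, so these counts are a description.

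The leading genes also differed in base composition. Transcripts of the 12 genes higher in AS DEX had a GC content of 50.1 to 65.8% (median 57.0%), and those of the 12 lower genes 38.4 to 55.9% (median 42.7%). The ends of this range are shown by C1ql1 (transcript GC 65.8%) and Zfp119b (38.4%), with the first 120 coding bases of the longest coding exon on the minus strand of GRCm38, at chr11:102946342-102946461 and chr17:55939874-55939993, from the GENCODE models. G and C are in capitals and make up 70.8% of the first stretch and 40.8% of the second.

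C1ql1: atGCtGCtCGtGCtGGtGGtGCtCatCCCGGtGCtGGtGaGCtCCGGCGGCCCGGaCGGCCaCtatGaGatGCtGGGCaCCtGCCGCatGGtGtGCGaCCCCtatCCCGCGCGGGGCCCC
Zfp119b: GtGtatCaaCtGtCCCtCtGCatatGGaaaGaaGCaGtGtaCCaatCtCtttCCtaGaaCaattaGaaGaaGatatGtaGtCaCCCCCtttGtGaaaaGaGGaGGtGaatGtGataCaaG

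Across the transcriptome the AS DEX to control DEX difference followed GC content in the same direction. Over 12125 protein-coding genes with a mean of at least 100 normalized counts, the Spearman correlation across genes between the log2 difference and transcript GC content was 0.59, while that with transcript length was 0.04. Genes are not independent replicates and all share the same 5 libraries. In the tenth of genes lowest in GC (31.0 to 41.4%) the median log2 difference was -0.18, and 44.6% of the genes were lower in both AS DEX libraries than in all 3 control DEX libraries. In the tenth highest in GC (58.1 to 71.3%) the median was 0.17, and 44.0% were higher without overlap. The background over all genes was 14.9% lower and 15.4% higher. In saline the correlation between the AS to control difference and GC content was -0.40, opposite in sign.

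**Figure D2:**
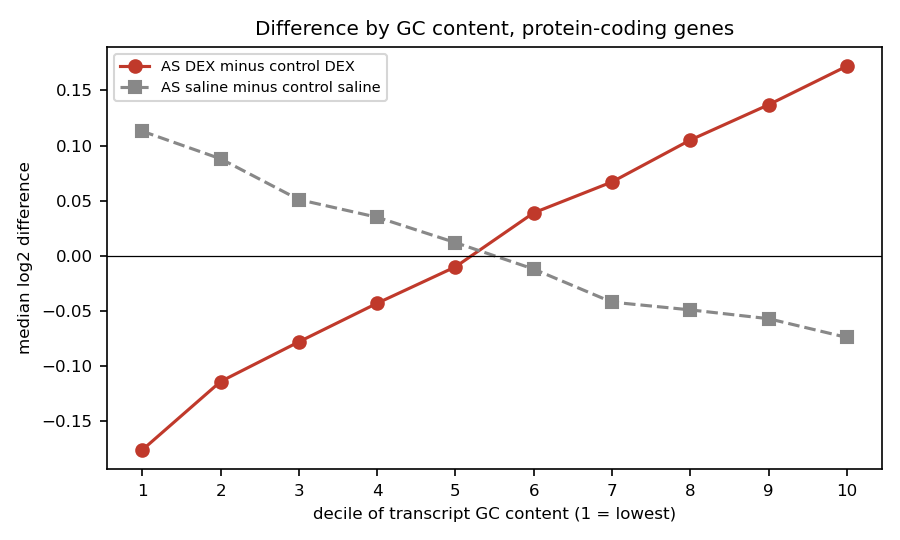
Median log2 difference of AS minus control (y axis) in 10 equal groups of protein-coding genes ordered by transcript GC content (x axis), with 1 line for DEX and 1 for saline. The DEX line goes from -0.18 to 0.17 and the saline line from 0.11 to -0.07.

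The same relation was taken as 1 value for each library, called the GC tilt, which is the median log2 level of the tenth of genes highest in GC minus that of the tenth lowest, with each gene taken relative to its mean over the 16 libraries. It was -0.09, -0.32 and -0.06 in con_dex_101, con_dex_116 and con_dex_122, and 0.27 and 0.10 in AS DEX 38 and 42. The 2 groups did not overlap, with means of -0.16 ± 0.15 (SD, n = 3) and 0.19 ± 0.12 (SD, n = 2). The exact two-sided permutation p was 0.1, which is the smallest that 10 arrangements allow. The saline groups spread more widely than these, with 0.21, 0.42 and -0.26 in control saline and 0.05, -0.31 and 0.07 in AS saline. The correlation across genes was 0.39 without AS DEX 38 and 0.54 to 0.63 without any other of the 5 libraries.

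Removing a smooth trend on GC content from each library before the fit left 0 genes past the adjusted p of 0.1 in limma and 255 (1.76%) at an unadjusted p under 0.05. All 24 leading genes were among the latter, with C1ql1 at a log2 difference of 0.53, Col6a1 at 1.27 and Zfp119b at -0.78. The 24 had been chosen by small p in the same libraries, so this count does not test whether they depend on GC content. The source of the GC trend was not tested.

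The genes that fell by DESeq2 were noncoding transcripts that overlap a much more abundant gene on the opposite strand. Antisense RNAs of this kind can regulate their partner, but in a strand-specific library a small share of the partner's reads can also be assigned to them. Gm11583 (chr11:97160990-97161675, plus strand) lies opposite Kpnb1, the importin that carries proteins into the nucleus. All of its 466 exonic bases pair with exons of that gene, on the 3′ side of the Kpnb1 coding sequence. Gm11583 had 54.6, 36.9 and 47.5 normalized counts in control DEX and 5.05 and 2.95 in AS DEX, a log2 difference of -3.26 ± 0.46 with an adjusted p of 0.0888 in limma. The values of Kpnb1 were 12818, 12983 and 13039 against 11413 and 12597. Gm11583 thus stood at 0.43, 0.28 and 0.36% of its partner in control DEX and at 0.04 and 0.02% in AS DEX.

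Other genes of this kind also lay lower in both AS DEX libraries. Gm14703, opposite the synaptic vesicle gene Syp, had 2831, 1401 and 939 normalized counts in control DEX and 157 and 231 in AS DEX, a log2 difference of -3.02 ± 0.62. Gm26582, opposite the stress granule gene G3bp2, had 438, 270.3 and 207 against 47.5 and 36.4, a log2 difference of -2.78 ± 0.56. Gm26882, opposite the chromatin gene Morf4l1, had 195, 109 and 76.4 against 5.05 and 6.88, a log2 difference of -4.10 ± 0.87. The library con_dex_101 was the highest for all 3. Gm28364, opposite Aamp, had 40.7, 20.3 and 11.03 normalized counts in control DEX and none in either AS DEX library. Other noncoding genes that fell by DESeq2 included AC121821.2 (opposite Matr3), Gm26762 (Gpi1), Gm13645 (Chd5), Gm12352 (Mien1) and Gm26768 (Dctn6).

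The overlap can be seen in 60 bases shared by Gm28364 and Aamp (chr1:74281329-74281388) and 60 shared by Gm26582 and G3bp2 (chr5:92054784-92054843), each pair read from GRCm38 on both strands. Every base of 1 transcript pairs with the other there. The capitals mark the first 10 bases of the stretch shown from the noncoding gene and the 10 of the partner that pair with them.

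Gm28364: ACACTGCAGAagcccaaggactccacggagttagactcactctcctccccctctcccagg
Aamp: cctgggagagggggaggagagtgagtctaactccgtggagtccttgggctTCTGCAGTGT
Gm26582: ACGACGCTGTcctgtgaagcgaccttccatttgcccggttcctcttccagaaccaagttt
G3bp2: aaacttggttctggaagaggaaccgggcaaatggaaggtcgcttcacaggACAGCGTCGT

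In all, 210 noncoding genes shared at least 100 exonic bases with an opposite-strand partner of at least 10 times their level. Of these, 121 were lower in AS DEX and 89 higher, with a median log2 difference of -0.06 (-0.05 without the 2 that had no reads in AS DEX) against 0.01 over all genes. The median was 0.01 without con_dex_101, -0.02 without AS DEX 38 and -0.15 without con_dex_116. At an unadjusted p under 0.05, 31 were lower and 2 higher, where the background was 1.99% and 1.51%. Of the 799 noncoding genes without such overlap, 15 were lower and 4 higher at that level. The shared bases, 105342 in total, lay to 32.8% in partner coding sequence, to 24.8% on its 3′ side and to 24.1% on its 5′ side.

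An opposite-strand score over these 210 genes, the mean log2 ratio of each gene to its partner relative to the 16 libraries, was 0.47, -0.03 and 0.02 in control DEX and -0.48 and -0.34 in AS DEX. The groups did not overlap, and their difference of -0.56 had an exact two-sided permutation p of 0.1, the smallest possible. The score was 0.60 and 0.66 in con_sal_104 and con_sal_114 and -0.27 in con_sal_102, and it lay between -0.23 and -0.22 in the 3 AS saline libraries. AS against control in saline gave 11 genes by DESeq2 (0.0774%), of which 10 fell and 1, Cp, rose. All 10 are noncoding and share exonic bases with an opposite-strand gene, and so does Cp (108 bases with Hps3). Of the 10, 1700040L08Rik shares 96 bases, under the 100 required for the set above. Of 1174 noncoding genes, 799 had no opposite-strand overlap. Antisense transcription and assignment of partner reads to the wrong strand cannot be told apart in these counts.

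**Figure D3:**
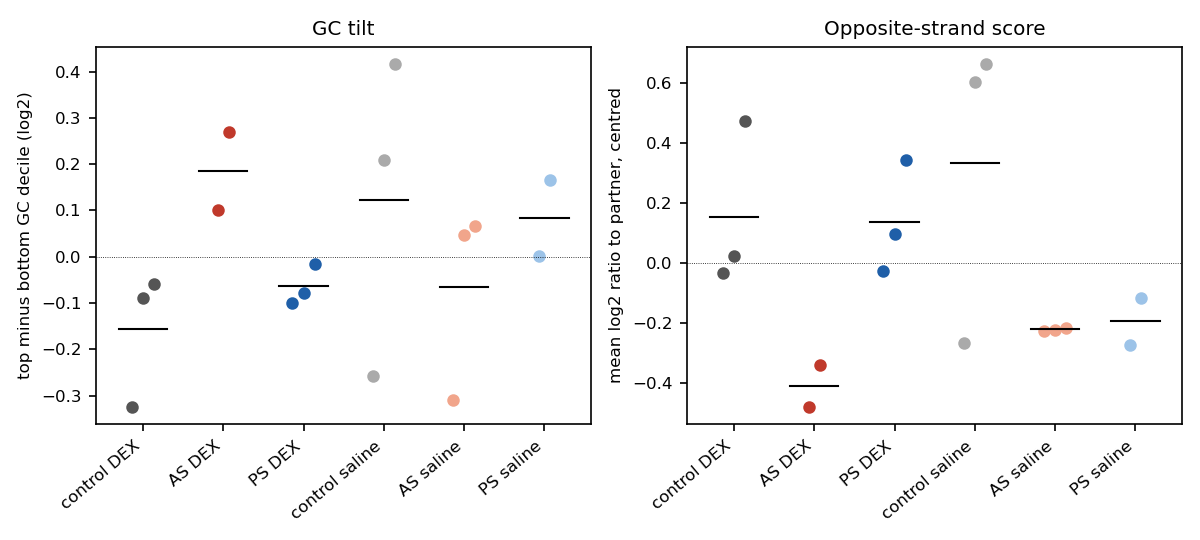
GC tilt (log2, left) and opposite-strand score (log2, right) of the 16 libraries in 6 groups, with 1 point for each library and a bar at each group mean. AS DEX lies above control DEX in the GC tilt (0.19 against -0.16) and below it in the opposite-strand score (-0.41 against 0.15).

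The levels of the best-known glucocorticoid targets lay close together in AS DEX and control DEX libraries. Fkbp5 had 5701, 5771 and 6330.1 normalized counts in control DEX and 5578 and 6683 in AS DEX, a ratio of AS to control of 1.03 with a 95% interval of 0.876 to 1.21. DEX libraries of each phenotype stood 4.57-fold (control) and 4.61-fold (AS) above saline libraries. Tsc22d3, which encodes the anti-inflammatory leucine zipper GILZ, had 6359.6, 6151 and 7005 against 7489 and 5824 normalized counts, a ratio of 1.02 (0.79 to 1.31). Cdkn1a, the cell cycle inhibitor p21, had a ratio of 1.01 (0.796 to 1.28) and Zbtb16, a transcriptional repressor, one of 0.985 (0.732 to 1.33). Sgk1, a kinase that glucocorticoids induce, had a ratio of 0.965 (0.773 to 1.20).

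Plin4, a lipid droplet protein, had the largest fold over saline of the genes followed here, 19.9-fold in control and 26.9-fold in AS mice. Its normalized counts were 3847, 2169 and 3799 in control DEX and 3842 and 3649 in AS DEX, where con_dex_116 was the lowest of the 5, and the ratio of AS to control was 1.18 (0.791 to 1.77). Per1, a clock gene with glucocorticoid response elements, had 2815, 2435 and 3104 against 3506 and 3327 normalized counts and a ratio of 1.23 (0.926 to 1.64). Both AS DEX values of Per1 lay above all control DEX values, and its interval included no difference.

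Of 38 glucocorticoid targets, 36 were tested, and 0 passed the adjusted p of 0.1 in limma. The 25 that lay higher in AS DEX and the 11 that lay lower gave a median log2 difference of 0.08, which was 0.02 after the GC trend was removed, 0.02 without AS DEX 42 and -0.01 without con_dex_116. For 21 of the 36 the 95% interval stayed within 1.5-fold on both sides, so larger differences than that were outside the interval for these and inside it for the other 15. Klf9, a transcription factor that glucocorticoids raise, was the 1 target at an unadjusted p under 0.05. It had 5932, 5949 and 5997 normalized counts in control DEX and 4893 and 4881 in AS DEX, a ratio of 0.82 (0.702 to 0.958) with an adjusted p of 0.99 in limma. Its fold of DEX over saline was 1.69 in control and 1.29 in AS mice. On the log2 scale these were 0.75 and 0.37, and PS mice had 0.62.

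**Figure D4:**
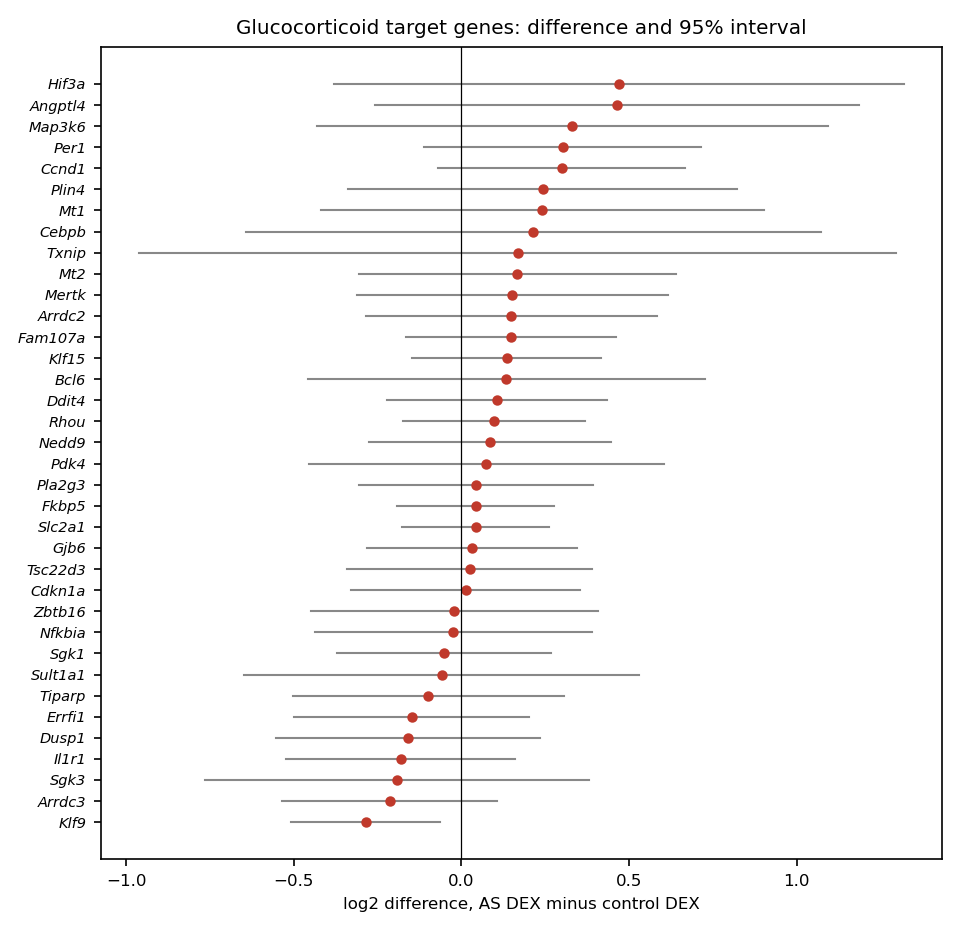
Log2 difference of AS DEX minus control DEX (x axis) with its 95% interval for the 36 glucocorticoid targets tested. The estimates run from -0.29 (Klf9) to 0.47 (Hif3a), and every interval but that of Klf9 includes 0.

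The receptors lay lower in AS DEX, without passing the test. Nr3c1, the glucocorticoid receptor, had 4095, 5624 and 4993 normalized counts in control DEX and 3999.6 and 3759.7 in AS DEX, a ratio of 0.797 (0.659 to 0.965) with an adjusted p of 0.99 in limma. Nr3c2, the mineralocorticoid receptor, had 1451, 1341 and 1463 against 1301 and 1234, a ratio of 0.894 (0.716 to 1.12). The groups did not overlap for either gene. DEX stood at 0.816-fold of saline for Nr3c1 in control mice and at 0.606-fold in AS mice. On the log2 scale these were -0.29 and -0.72, and PS mice had -0.61.

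Among 21 corticosteroid receptors, chaperones and cofactors, 15 lay lower in AS DEX and 6 higher, with a median log2 difference of -0.07 that ran from -0.14 (without con_dex_122) to -0.01 (without AS DEX 38), with -0.03 without con_dex_116. Hsp90aa1, the stress-inducible form of the HSP90 chaperone that holds the unbound receptor, had 50103, 60160 and 50906 normalized counts in control DEX and 42787 and 41569 in AS DEX, a log2 difference of -0.34 ± 0.17. Hspa8, a constitutive HSP70, had 77842, 107276 and 75459 against 74149 and 71360.3, a log2 difference of -0.24 ± 0.22. Both chaperones were highest in con_dex_116. Hsd11b1, the enzyme that regenerates active glucocorticoid, had 373, 590.5 and 315 against 320.2 and 266 normalized counts with overlapping groups.

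Genes that respond to DEX were also taken from PS mice, whose 5 libraries are in neither group compared. At an adjusted p of 0.1 in limma, DEX against saline in PS mice passed 84 genes that rose (0.579%) and 18 that fell (0.124%), 0.703% in all. Of the 84, 55 lay higher in AS DEX than in control DEX and 29 lower, with a median log2 difference of 0.04 that ran from 0.01 (without AS DEX 42) to 0.10 (without AS DEX 38), with 0.02 without con_dex_116 and 0.09 without con_dex_101. Of the 18, 6 lay higher and 12 lower, with a median of -0.12 that was -0.01 without con_dex_116 and -0.18 without AS DEX 38. None of these genes passed the adjusted p of 0.1 between AS DEX and control DEX.

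Serotonergic genes lay lower in AS DEX on the whole, and none passed the test. Of 20 tested genes of serotonin synthesis, transport, breakdown and reception, 15 were lower and 5 higher, with a median log2 difference of -0.16 (-0.10 after the GC trend was removed and -0.23 to -0.11 over the 5 left-out libraries). Tph2, the rate-limiting enzyme of brain serotonin synthesis, differed by -0.45 ± 0.24 on the log2 scale. The study left out DRN libraries with low Tph2, so that gene took part in the choice of libraries. By its methods these came from DEX-treated AS and PS mice, and so from AS DEX but not from control DEX. The series holds 16 DRN libraries, which is fewer than the methods leave after that step. Control DEX, with 3, also lies below the replicate number given there. The reason for these further absences is not stated in the sources used here. How this choice moved Tph2 and the other serotonergic genes here was not tested. Slc18a2, the vesicular monoamine transporter, had 58493, 78329.6 and 68013 normalized counts in control DEX and 54304 and 53266 in AS DEX, a log2 difference of -0.33 ± 0.17. Ddc, the decarboxylase after Tph2, had 62044, 76184 and 72196 against 58791 and 56411, a log2 difference of -0.28 ± 0.20. Tph2, Slc18a2 and Ddc were all highest in con_dex_116 and closest to the AS DEX values in con_dex_101.

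Maoa, which breaks serotonin down, had 5528, 6789 and 5845 normalized counts in control DEX and 5040.1 and 4910.4 in AS DEX, a log2 difference of -0.28 ± 0.14. Slc6a4, the serotonin transporter, overlapped between the groups and differed by -0.19 ± 0.21. The autoreceptor Htr1a differed by -0.18 ± 0.12, and Htr1b and Htr1d by -0.06 ± 0.13 and -0.05 ± 0.14. Of the transcription factors that specify serotonin neurons, Fev differed by 0.03 ± 0.30, Lmx1b by -0.00 ± 0.25 and Gata3 by 0.11 ± 0.14. A serotonin identity score over 17 such genes was -0.07, 0.02 and 0.05 in control DEX and 0.00 and -0.12 in AS DEX. In these tissue punches, here and for the cell types that follow, fewer cells of a type and less RNA per cell cannot be told apart.

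Genes of GABA neurons lay higher in AS DEX than in control DEX. Of 12 tested, 9 were higher and 3 lower, with a median log2 difference of 0.32 that was 0.25 after the GC trend was removed and 0.22 (without con_dex_116) to 0.47 (without AS DEX 38) with 1 of the 5 libraries left out. In 7 of the 12 both AS DEX libraries lay above all 3 control DEX libraries, against 15.4% of all genes. Sst, the peptide somatostatin, had 3620.1, 2717 and 3653 normalized counts in control DEX and 5804 and 9699.8 in AS DEX, a log2 difference of 1.18 ± 0.47. Tal1, a transcription factor of midbrain GABA neurons, had 1237, 995 and 1273 against 1493 and 2060.3, a log2 difference of 0.59 ± 0.19. Slc32a1, the vesicular GABA transporter, had 7495, 5589 and 6939 against 8739 and 11059, a log2 difference of 0.57 ± 0.27.

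AS DEX 42 was the higher of the pair for Sst, Tal1 and Slc32a1, and also for Gad2 (21014 and 29714 against 20687, 17859.6 and 21930 in control DEX). Gad1, the other GABA-synthesizing enzyme, overlapped between the groups with a log2 difference of 0.12 ± 0.21. The GABA transporter Slc6a11 differed by 0.30 ± 0.14. Pvalb, a calcium-binding protein of fast-spiking neurons, went the other way with 731, 1076 and 193 normalized counts in control DEX and 278 and 139.7 in AS DEX. In saline the median of the 12 genes was -0.14, and Sst differed by -0.84 ± 0.42, Tal1 by -0.27 ± 0.17 and Slc32a1 by -0.30 ± 0.24. None of the 12 passed the adjusted p of 0.1 in limma for AS against control under DEX.

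Several neuropeptide genes lay on the same side as Sst, which is also among them. Pnoc, the nociceptin precursor, had 1049, 937 and 956 normalized counts in control DEX and 1581 and 2011 in AS DEX, a log2 difference of 0.86 ± 0.27. Trh had 1014, 922 and 1008 against 1357 and 2006, a log2 difference of 0.75 ± 0.38, and Penk, the enkephalin precursor, had 4109, 2601 and 3227 against 4423 and 4529.8, one of 0.46 ± 0.23. Over 19 neuropeptides 13 were higher and 6 lower, with a median of 0.10 under DEX and of -0.33 in saline. The DEX median was -0.02 without con_dex_122, 0.22 and 0.27 without con_dex_116 and con_dex_101, and 0.33 without AS DEX 42. Single libraries set some of the others, such as Cartpt at 2968, 128 and 91.7 in control DEX and 144 and 121.9 in AS DEX, and Vip at 2611, 9115 and 2309 against 5242 and 3153. How the borders of each punch contributed to these cell-type markers was not tested.

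Glial lists differed in direction between cell types. Of 24 genes of myelin and oligodendrocytes 18 lay lower in AS DEX, with a median of -0.12 that was -0.06 without con_dex_101 or con_dex_116 and -0.24 without con_dex_122. Of 11 oligodendrocyte precursor genes 7 lay higher, with a median of 0.13 and a range of 0.08 to 0.20 over the 5 left-out libraries. Beside C1ql1, the precursor genes Gpr17 and Pdgfra had log2 differences of 0.31 ± 0.21 and 0.13 ± 0.12, with groups that did not overlap. Of 18 astrocyte genes 14 were higher, with a median of 0.07, and 19 microglia genes had a median of 0.05. These were -0.01 and -0.02 without AS DEX 38 and 0.16 and 0.13 without AS DEX 42, so the sign of both rested on 1 AS DEX library. Matrix genes had 17 of 20 higher with a median of 0.15 (0.14 to 0.20 over the left-out libraries), where Col11a1 followed Col6a1 with 2082, 1133 and 1762 normalized counts in control DEX and 2888 and 2575 in AS DEX. The matrix median was 0.08 after the GC trend was removed and -0.04 with the opposite-strand score as a covariate. The precursor median was 0.12 and -0.14 in these 2 settings.

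Transcripts of the mitochondrial genome lay lower in AS DEX. Of 31 tested, 27 were lower and 4 higher, with a median log2 difference of -0.30 that was -0.21 without AS DEX 38, -0.51 without AS DEX 42 and -0.53 without con_dex_122, and 13 of the 31 were lower without overlap against 14.9% of all genes. Of the 31, 3 transfer RNAs had no reads in AS DEX, and the median without them was -0.295. The protein-coding mt-Co2 had 2641, 3160.1 and 2439 normalized counts in control DEX and 1485 and 1633 in AS DEX, a log2 difference of -0.81 ± 0.28. For mt-Atp6 the values were 1511, 1164 and 1315 against 627 and 638, a log2 difference of -1.06 ± 0.38. For mt-Nd6 they were 5027, 2797 and 3143 against 1515 and 1876, one of -1.07 ± 0.38. These transcripts have a median GC content of 35.8%, and after the GC trend was removed their median difference was -0.06. In saline it was 0.13.

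Nuclear genes of the ribosome, oxidative phosphorylation and the proteasome lay slightly lower in AS DEX, and most of this was lost without 1 library. Of 82 cytosolic ribosome genes 68 were lower with a median of -0.11, of 78 nuclear oxidative phosphorylation genes 65 with -0.12, and of 36 proteasome genes 30 with -0.14. Without con_dex_116 the medians were 0.03, 0.00 and -0.05, and without con_dex_122 they were -0.18, -0.20 and -0.21. Heat shock and cholesterol synthesis genes went the same way, with medians of -0.10 and -0.14 that became -0.02 and -0.04 without con_dex_116, and the heat shock median was -0.17 without con_dex_122. Glutamatergic synapse genes had a median of 0.14 that became 0.03 without con_dex_116 or AS DEX 42 and 0.21 without AS DEX 38. AS saline 40 (ribosome score 0.81) and con_sal_104 and con_sal_114 (0.33 and 0.35) stood apart in the same direction as con_dex_116.

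**Figure D5:**
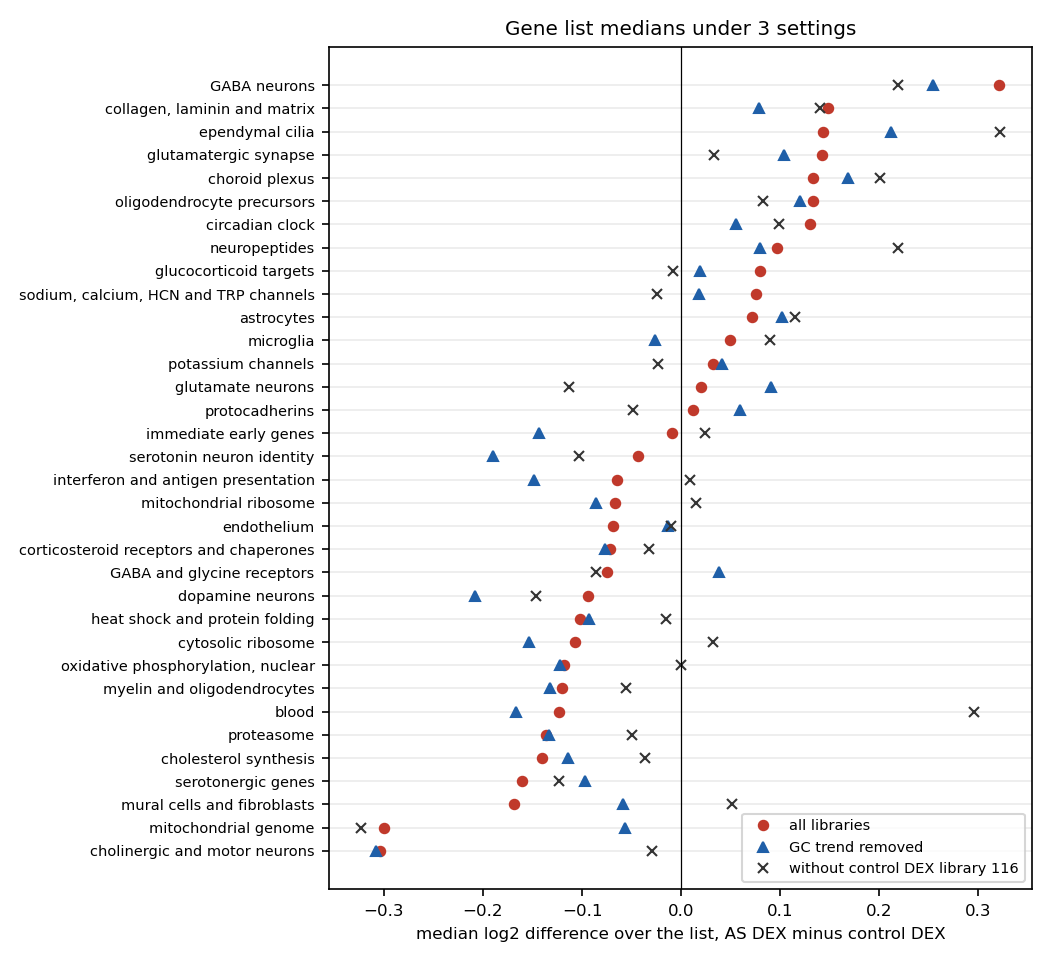
Median log2 difference of AS DEX minus control DEX (x axis) for 34 gene lists, from all libraries, after removal of the GC trend, and without con_dex_116. GABA neuron genes have medians of 0.32, 0.25 and 0.22 in the 3 settings, while the mitochondrial genome goes from -0.30 to -0.06 once the GC trend is removed.

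The AS to control difference under DEX was set beside that in saline, which uses 6 other libraries. In saline 0 of 14504 genes passed the adjusted p of 0.1 in limma (347 or 2.39% at an unadjusted p under 0.05), and the median absolute log2 difference was 0.10. Across the 12863 genes the 2 differences had a Pearson correlation of 0.03 and a Spearman correlation of -0.13, given as a description over genes that share libraries. After the GC trend was removed these were 0.19 and 0.15, and the share of genes with the same sign went from 43.0 to 56.9%.

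The test of the difference between the 2 differences passed 0 genes in limma (583 or 4.02% at an unadjusted p under 0.05), 0 in DESeq2 and 0 in edgeR. The protein-coding genes with the smallest p in that test were Galntl6, Zfp729a, St8sia6, Rce1 and Asic4. Asic4 had a difference of differences of 0.99 ± 0.25 on the log2 scale and Galntl6 one of -0.55 ± 0.13. St8sia6, a sialyltransferase, had 2274, 2938 and 2866 normalized counts in control DEX and 1712 and 2063 in AS DEX, with 1464, 1177 and 1541 in control saline and 1852, 2291 and 1762 in AS saline. Its difference of differences was -1.01 ± 0.24, with an adjusted p of 0.94 in limma.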

How the data were processed

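Poly(A) RNA from dorsal raphe tissue punches was sequenced in strand-specific libraries. By the study's methods and the submitters' processing notes, reads were trimmed with fastp 0.20.1, aligned with HISAT2 2.2.1 to mm10 (GRCm38), counted per gene with featureCounts (Subread 2.0) on GENCODE genes and scaled with DESeq2 1.36.0. The strand setting of the counting is not given in the sources used here. The authors deposited a table of normalized counts (signal: reads divided by the library's size factor) for 16 libraries, and all 16 columns were mapped by name. Further deposited tables of the authors' own comparisons hold log2 fold changes and p-values and were not used.

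The members of the comparison and all gene lists were chosen with earlier results of these data known. The 5 libraries were found by their labels. The values were fitted with limma 3.58.1 (R 4.3.3) as log2(normalized count + 1), with a mean for each of 6 groups, a trended empirical Bayes variance (10 residual and 3.88 prior degrees of freedom) and Benjamini-Hochberg adjustment over 14504 genes, with a threshold of 0.1. Because the log2 difference includes the pseudocount, it understates the change of low genes. Whole reads were recovered from 100% of the values (within 0.01 of a whole number), and DESeq2 1.42.0 (12 genes passed) and edgeR 4.0.16 (0 passed) were run on them. Depth was 39733580 to 54638098 reads in the libraries compared.

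Transcript GC content, length, class and overlap came from GENCODE vM21 on GRCm38, with a value for 14493 genes. The GC trend was a loess curve (span 0.5) of each library's deviations. Named genes were the 12 higher and 12 lower protein-coding genes with the smallest p, a mean of at least 50 and groups that do not overlap, fixed glucocorticoid and serotonin genes, up to 2 members of each list and direction, 5 genes of the interaction and genes passed by at least 2 tools. Noncoding genes passed by DESeq2, and list members shown for contrast (Cartpt, Vip, Pvalb, Gad1, Gad2 and others), were chosen after their values were seen. Confidence intervals are 95%. A few genes are not reported here by name. The limma script was tested on simulated counts. Pseudocount, filter, scaling, variance model, samples, tool, covariates and each left-out library were varied.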

Additional observations from a re-analysis of the deposited data

How the results depend on the processing

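The number of genes passing the adjusted p of 0.1 between AS DEX and control DEX (1 as reported, with limma) was 2 with a pseudocount of 0.1, 14 with library weights (3 higher, which were C1ql1, Asic4 and Rasa4, and 11 lower), 12 with DESeq2, and 0 with a pseudocount of 10, a mean filter of 100, quantile normalization, only the groups compared, or edgeR. It was also 0 with 3 settings chosen after seeing the data (the GC trend removed, the opposite-strand score as a covariate, genes with no opposite-strand overlap), and stayed at 1 with TMM scaling, robust variances and the serotonin score. Leaving out 1 library at a time gave 0 to 8 genes. The 8 came without con_sal_102 and all were lower, and Gm11583 was lost without con_dex_101 or con_dex_116, either AS DEX library, or most libraries of the other groups. Without AS DEX 38 the 1 gene passed was Gm37986. Among the named genes the number passed was 2 with a pseudocount of 0.1, 13 with library weights, 12 with DESeq2, 0 to 8 over left-out libraries and 0 in the other settings given as 0 above. In saline it was 11 with DESeq2 and 0 to 20 over left-out libraries, with 20 without con_sal_102. The counts for the difference of differences, for list medians above 0 (15 of 34) and the median of genes raised by DEX in PS mice (0.0429) stayed within 1.5 times of the reported counts and, for the median, within the spread between replicates. No gene that passed the threshold reversed, but several list medians changed sign when 1 library was left out, and those values stand beside each list. Of 5381 alternative values of 181 named genes, 80 changed sign, in 42 genes that included none of the 24 leading ones. Leaving out a library could not turn the sign of those 24, which were chosen for groups that do not overlap. No paired analysis was possible because the replicate numbers differ between the groups. With 2 AS DEX libraries, leaving 1 out assumes that the lone library varies like the other groups.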

Other observations

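Several further gene groups were followed in AS DEX against control DEX, and none held a gene that passed the adjusted p of 0.1 in limma. Of 20 circadian clock genes 14 lay higher in AS DEX, with a median log2 difference of 0.13 (0.06 after the GC trend was removed, 0.02 without AS DEX 38 and 0.22 without AS DEX 42). Immediate early genes, which neuronal activity raises within minutes, had a median of -0.01 over 19 genes, between -0.13 (without AS DEX 42) and 0.05 (without AS DEX 38). Of 70 potassium channel genes 42 lay higher and 28 lower, with a median of 0.03 that ran from -0.02 (without con_dex_116) to 0.10 (without con_dex_122). Kcng2, a modifier subunit of Kv channels, had 121, 91.3 and 139 normalized counts in control DEX and 210.1 and 189.8 in AS DEX, a log2 difference of 0.79 ± 0.25. Kcnj5 and Kcnj3, subunits that can form an inward rectifier opened by Gi-coupled receptors, went opposite ways. Kcnj5 had 228, 197 and 264 against 295 and 339 normalized counts and Kcnj3 had 2356, 2012 and 2149.6 against 1759.8 and 1712, with groups that did not overlap for either.

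The medians of the remaining lists, each with its range when 1 of the 5 libraries was left out, mostly changed sign within that range. They were 0.08 (-0.02 to 0.14) for 47 sodium, calcium, HCN and TRP channels and 0.01 (-0.05 to 0.11) for 47 protocadherins, both negative without con_dex_116. For 21 GABA and glycine receptors the median was -0.08 (-0.16 to 0.02), above 0 without con_dex_122 or AS DEX 38. For 19 interferon and antigen presentation genes it was -0.07 (-0.22 to 0.01) and for 77 mitochondrial ribosome genes -0.07 (-0.11 to 0.02), both above 0 without con_dex_116.

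Markers of other cells that a DRN punch can hold depended more on single libraries. The median of 25 ependymal genes was 0.14, and it was -0.78 without AS DEX 38, -0.55 without con_dex_101, 0.61 without con_dex_122 and 1.002 without AS DEX 42. That of 7 cholinergic and motor neuron genes was -0.30, with -1.02 without AS DEX 38, -0.03 without con_dex_116 and 0.38 without AS DEX 42. That of 4 blood genes was -0.12, with -0.63 without con_dex_101, 0.30 without con_dex_116 and 0.11 without AS DEX 38. That of 11 mural and fibroblast genes was -0.17, with 0.05 without con_dex_116 and 0.06 without AS DEX 42. That of 6 glutamate neuron genes was 0.02 (-0.14 without con_dex_122 to 0.18 without con_dex_101) and that of 17 endothelial genes -0.07 (-0.07 to 0.01, above 0 without AS DEX 38). The medians of 11 dopamine neuron genes (-0.09, range -0.27 to -0.02) and 7 choroid plexus genes (0.13, range 0.04 to 0.26) kept their sign over the 5.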
